A study of Arabidopsis thaliana with 12 samples.

Results

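Chlorophyll is made in plastids by a chain of enzymes, and the genes examined here are 8 that encode proteins of that chain together with the 2 GOLDEN2-LIKE (GLK) transcription factors that control greening. They were chosen by locus identifier: HEMA1, GUN4, CHLH, CRD1, PORA, PORB, PORC, CAO, GLK1 and GLK2, which are 10 of the 36795 genes in the count table. The choice was made with earlier results of these data known. All 10 passed the filter on low counts, with which 19612 genes were tested.

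Seeds of Arabidopsis thaliana were profiled by RNA sequencing in 12 libraries, 2 in each of 6 groups. The lines were amiR-SYD-1 and amiR-SYD-2, whose artificial microRNAs target SPLAYED (SYD), a SWI/SNF chromatin-remodelling ATPase, and amiR-HsMYO, labelled as the wild-type control. Each line was sown with 2 µM (±)-abscisic acid (ABA, the hormone that holds back germination) or with 0.002% ethanol (EtOH, the control medium), so the groups were amiR-SYD-1 on ABA, amiR-SYD-2 on ABA, amiR-HsMYO on ABA, and the same 3 lines on EtOH. On that medium all seeds had 3 days of cold (4 °C) in the dark and then 24 h at 16 h light and 8 h dark. Every line carried an artificial microRNA transgene, there was 1 control line, and both SYD lines were set against the same amiR-HsMYO libraries, so their 2 differences are not independent of each other. The labels call the libraries of a group biological replicates without saying whether seed batches were separate, so p-values measure the spread between these samples. The fit pools that spread over all 6 groups, though it was unequal. Chi-square per degree of freedom between the 2 libraries was 13.31 in amiR-HsMYO on ABA and 9.03 in amiR-SYD-2 on EtOH. In the other groups it lay between 2.4 and 4.71.

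In chlorophyll synthesis, glutamyl-tRNA reductase (HEMA) makes the precursor of 5-aminolevulinate and sets the flow into the pathway. Magnesium chelatase, whose H subunit is CHLH and whose activator is GUN4, then commits protoporphyrin IX to chlorophyll, and CRD1 acts in closing the ring that gives protochlorophyllide. The POR enzymes reduce protochlorophyllide to chlorophyllide in light, CAO makes chlorophyll b, and GLK1 and GLK2 are known to activate many genes of this pathway and of the light-harvesting antenna. A germinating seedling needs these genes when it first meets light, and PORA is best known from dark-grown seedlings.

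The totals per library lay between 18713555 and 30012796 counts, so that 3 counts equalled 0.101 to 0.162 CPM (counts per 1000000 of the scaled library total). SYD itself was lower in both lines that target it: it averaged 105 ± 5.17 CPM in amiR-SYD-1 and 103 ± 6.39 CPM in amiR-SYD-2, against 182 ± 4.66 CPM in amiR-HsMYO, on EtOH (SD, n = 2 each). On ABA the averages were 149 ± 6.02 CPM in amiR-SYD-1 and 136 ± 14.9 CPM in amiR-SYD-2, against 213 ± 23.7 CPM in amiR-HsMYO. In the mean of both lines that is a log2 difference of -0.81 ± 0.08 on EtOH and -0.58 ± 0.08 on ABA (SE; edgeR's quasi-likelihood test, adjusted p = 1.4e-06 and 3.7e-05). Of markers for other parts of the seed, the 7 seed reserve genes summed to between 935 and 1440 CPM in the ABA libraries, against 59.1 to 286 CPM in the EtOH libraries. The 3 endosperm markers summed to between 3240 and 4940 CPM in the ABA libraries, against 2380 to 4460 CPM in the EtOH libraries, and most of that sum was EPR1. The 3 seed coat markers summed to between 0 and 0.264 CPM over all libraries. In bulk seeds, fewer cells of a type and less RNA per cell cannot be told apart.

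The sequence just upstream of each gene was read from the TAIR10.1 assembly (250 bases ending at the annotated start, given 5′ to 3′ on the gene's own strand) and searched on both strands for 4 short motifs. These were the G-box CACGTG, the core ACGTG of ABA-response elements (which lies inside every G-box), CCAATC, a motif reported for GLK proteins, and the I-box GATAAG, found before many light-regulated genes. The motifs stood in 6.5%, 22.9%, 10.2% and 12.3% of the upstream sequences of 27443 protein-coding genes, in that order. Among the 10 greening genes 2 had a G-box (CRD1 and CAO), 3 had ACGTG (PORB, CRD1 and CAO), 2 had CCAATC (PORB and GUN4) and 2 had the I-box (PORA and GLK1). PORA (chr5:21992815-21993064, minus strand) and PORB (chr4:13725296-13725545, plus strand) are shown because they fell more steeply on ABA than PORC, with motif matches on either strand in capitals:
PORA: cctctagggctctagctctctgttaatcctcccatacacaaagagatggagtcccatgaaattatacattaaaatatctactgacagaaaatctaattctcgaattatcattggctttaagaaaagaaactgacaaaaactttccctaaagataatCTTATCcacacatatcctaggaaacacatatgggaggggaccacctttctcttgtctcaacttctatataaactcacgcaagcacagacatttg
PORB: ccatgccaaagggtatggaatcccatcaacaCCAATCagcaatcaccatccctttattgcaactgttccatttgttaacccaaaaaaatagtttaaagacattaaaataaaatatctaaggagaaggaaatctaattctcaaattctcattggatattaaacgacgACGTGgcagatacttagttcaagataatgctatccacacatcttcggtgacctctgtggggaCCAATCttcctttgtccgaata
They share 3 runs of at least 10 bases in the same order: acattaaaata, which begins 185 bases before the PORA start and 152 before the PORB start, aaatctaattctc at 162 and 123 bases, and tatccacacat at 92 and 54 bases. CRD1 (chr3:21076255-21076504, plus strand) and CAO (chr1:16851272-16851521, minus strand) are shown because both carry a G-box, which begins 52 bases before the start in each and again at 32 bases in CAO, and their transcripts moved in opposite directions on ABA:
CRD1: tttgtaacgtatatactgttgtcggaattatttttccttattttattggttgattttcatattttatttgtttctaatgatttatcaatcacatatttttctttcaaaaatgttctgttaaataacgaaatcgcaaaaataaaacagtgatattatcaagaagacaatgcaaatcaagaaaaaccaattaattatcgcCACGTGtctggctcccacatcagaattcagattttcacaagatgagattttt
CAO: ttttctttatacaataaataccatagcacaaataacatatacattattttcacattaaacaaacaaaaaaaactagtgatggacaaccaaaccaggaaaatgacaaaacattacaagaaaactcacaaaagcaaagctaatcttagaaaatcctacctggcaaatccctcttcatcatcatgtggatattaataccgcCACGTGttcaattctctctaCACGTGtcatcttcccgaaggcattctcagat
A motif match is a description of these letters and no binding was measured.

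On ABA the same picture was found in each line: transcripts of HEMA1, CHLH, CRD1, all 3 POR genes and GLK2 fell, while GLK1 and CAO rose. In amiR-SYD-1, amiR-SYD-2 and amiR-HsMYO alike 7 of the 10 genes were called lower, 2 higher and 1 (GUN4) not at all by edgeR's quasi-likelihood test at a Benjamini-Hochberg adjusted p under 0.05, and 9 were called in the same direction in all 3 lines. ABA changed much of the transcriptome: 25.2% of all tested genes were called lower in amiR-SYD-1, 23.6% in amiR-SYD-2 and 27.1% in amiR-HsMYO, and 21.7%, 19.4% and 26.9% were called higher in the same lines. The 7 of 10 called lower therefore stood above a background of about 1 gene in 4, and the 2 of 10 called higher stood at it. Because the 10 genes were chosen with earlier results of these data known, that excess is a description and no test. The share of all tested genes called in the same direction in all 3 lines was not computed. The median log2 fold change of the 10 genes was -1.09 in amiR-SYD-1, -0.90 in amiR-SYD-2 and -1.05 in amiR-HsMYO, against a median over all tested genes of 0.00, 0.00 and 0.02. Markers of other seed tissues moved on ABA as well. The summed seed reserve markers were higher in every ABA library than in every EtOH library; in amiR-HsMYO 3 of the 7 were called higher (CRA1, OLEO1 and OLEO2) and 0 lower. The endosperm markers MAN7 (5.44-fold in amiR-SYD-1, 5.52-fold in amiR-SYD-2 and 6.29-fold in amiR-HsMYO) and EXPA2 (1.99-fold, 1.83-fold and 1.91-fold in the same lines) were called higher in every line. The remaining endosperm marker, EPR1, was called higher in amiR-SYD-2 alone (log2 0.57 ± 0.22, SE, adjusted p = 0.045). It was at 0.09 ± 0.22 in amiR-SYD-1 (adjusted p = 0.77) and -0.52 ± 0.22 in amiR-HsMYO (adjusted p = 0.053). Of the 4 root hair and root epidermis markers 3 (COBL9, EXPA7 and EXPA18) were called lower in every line, and 1 (RHD6) higher. The part of these markers in the values of the greening genes was not tested.

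**Figure D1:**
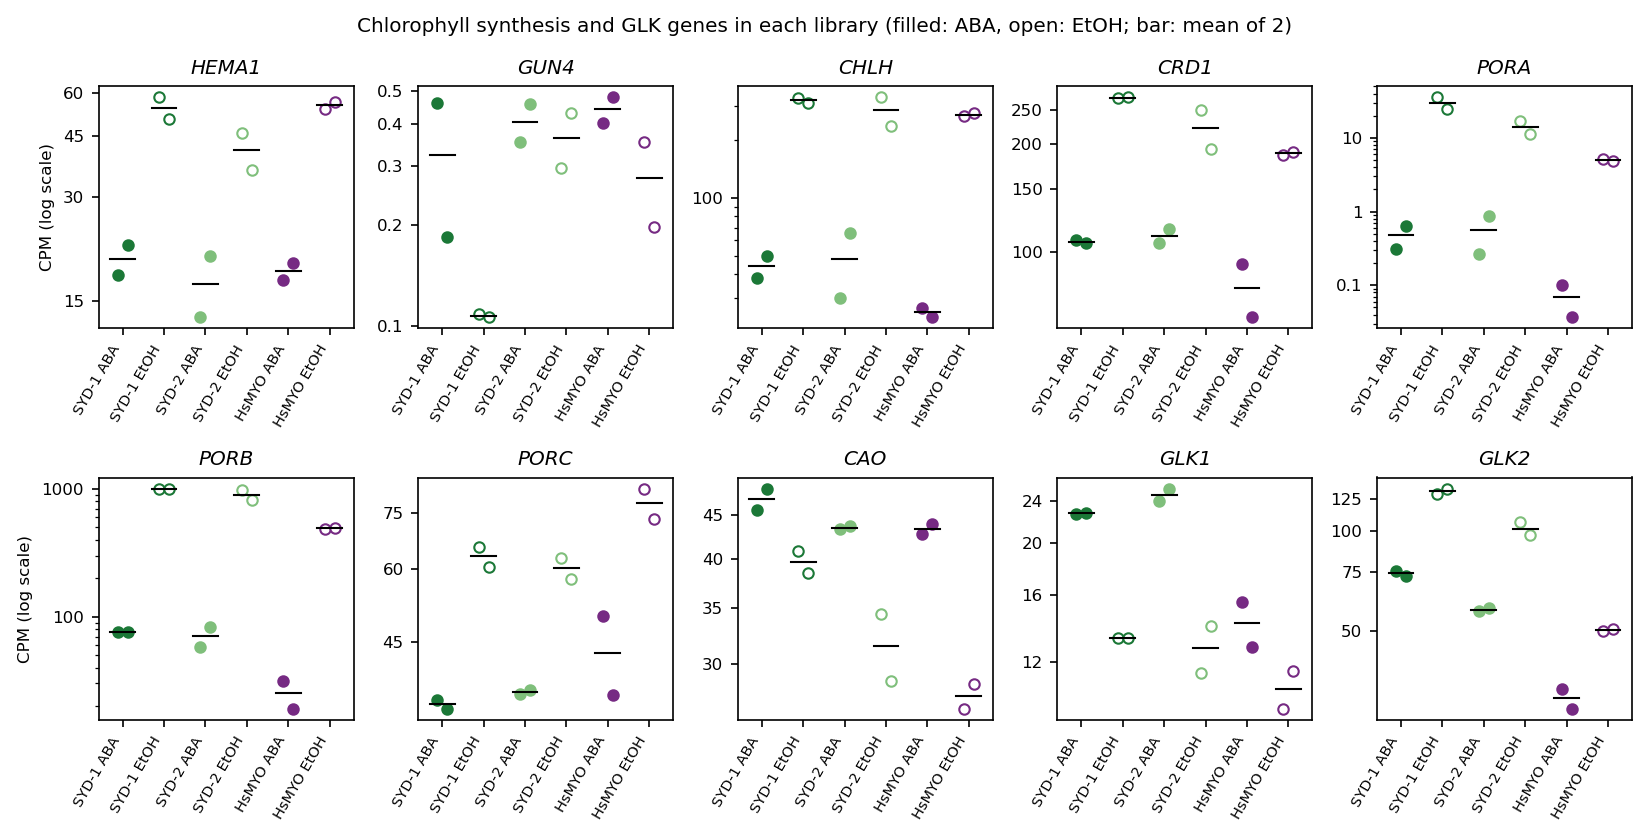
CPM (log axis, a separate scale for each gene) of the 10 genes in each of the 12 libraries; filled points are ABA, open points EtOH, and bars are the mean of 2 libraries. In PORB the 6 ABA libraries sit between 19.1 and 82.8 CPM, all below the 6 EtOH libraries, which sit between 489 and 1010 CPM.

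HEMA1 (AT1G58290, chr1:21623700-21626402) encodes the main glutamyl-tRNA reductase of green tissue. It had 17.8 and 21.8 CPM in amiR-SYD-1, 13.5 and 20.2 CPM in amiR-SYD-2 and 17.3 and 19.4 CPM in amiR-HsMYO on ABA. On EtOH it had 58.3 and 50.4 CPM in amiR-SYD-1, 45.8 and 36.0 CPM in amiR-SYD-2 and 54.0 and 56.5 CPM in amiR-HsMYO. Every ABA library lay below every EtOH library. The log2 fold change on ABA was -1.45 ± 0.15 (SE) in amiR-SYD-1, -1.28 ± 0.15 in amiR-SYD-2 and -1.59 ± 0.15 in amiR-HsMYO, which is 2.73-fold, 2.42-fold and 3.01-fold lower (adjusted p = 1.2e-06, 6.5e-06 and 2.2e-07).

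CHLH (AT5G13630, chr5:4387307-4392429), the large subunit of magnesium chelatase, responded more steeply. It had 38.3 and 49.6 CPM in amiR-SYD-1, 30 and 65.9 CPM in amiR-SYD-2 and 26.8 and 23.9 CPM in amiR-HsMYO on ABA. The EtOH values were 333 and 313 CPM in amiR-SYD-1, 336 and 236 CPM in amiR-SYD-2 and 267 and 277 CPM in amiR-HsMYO. No ABA library came near an EtOH library, and the 2 amiR-SYD-2 libraries on ABA stood further apart from each other than any other pair on ABA. The fold change on ABA was 7.34-fold lower in amiR-SYD-1 (log2 -2.88 ± 0.25, SE), 5.96-fold lower in amiR-SYD-2 (log2 -2.58 ± 0.25) and 10.7-fold lower in amiR-HsMYO (log2 -3.42 ± 0.26), with adjusted p = 1.4e-07, 4.7e-07 and 2e-08.

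CRD1 (AT3G56940, chr3:21076505-21078443), a subunit of the cyclase that forms the isocyclic ring of protochlorophyllide, had 108 and 106 CPM in amiR-SYD-1, 106 and 116 CPM in amiR-SYD-2 and 93.0 and 66.1 CPM in amiR-HsMYO on ABA. On EtOH the values were 269 and 271 CPM in amiR-SYD-1, 249 and 194 CPM in amiR-SYD-2 and 187 and 191 CPM in amiR-HsMYO, again without overlap between ABA and EtOH. It was 2.52-fold lower on ABA in amiR-SYD-1 (log2 -1.33 ± 0.13, SE), 2.00-fold in amiR-SYD-2 (log2 -1 ± 0.13) and 2.37-fold in amiR-HsMYO (log2 -1.25 ± 0.13), with adjusted p = 5.4e-07, 1.3e-05 and 8.9e-07. Other-strand exons cover 12.9% of the exonic length of CRD1.

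Of the enzymes that need light, PORA (AT5G54190, chr5:21990864-21992814) gave the steepest fall of the 10 genes. On ABA it had 0.307 and 0.644 CPM in amiR-SYD-1 (6 and 14 counts), 0.265 and 0.868 CPM in amiR-SYD-2 (6 and 19 counts) and 0.101 and 0.037 CPM in amiR-HsMYO (3 counts and 1 count). On EtOH it had 36.0 and 24.5 CPM in amiR-SYD-1, 16.9 and 11.3 CPM in amiR-SYD-2 and 5.12 and 4.84 CPM in amiR-HsMYO. PORA was thus close to the limit of detection in every ABA library, and the EtOH libraries were ordered by line without overlap. The fold change on ABA was 61.7-fold lower in amiR-SYD-1 (log2 -5.95 ± 0.35, SE), 24.6-fold lower in amiR-SYD-2 (log2 -4.62 ± 0.36) and 65.7-fold lower in amiR-HsMYO (log2 -6.04 ± 0.58), with adjusted p = 1.4e-09, 3.8e-08 and 3.4e-07. In amiR-HsMYO this rested on 4 counts on ABA and 239 counts on EtOH, and the EtOH over ABA ratio of those counts, scaled for depth, was 70.6 with a 95% interval of 27.2 to 261 that covers counting error only.

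PORB (AT4G27440, chr4:13725546-13727440), the POR gene known to stay on in light, was by far the most abundant of the 10 per length on EtOH. It had 75.8 and 76.3 CPM in amiR-SYD-1, 58.0 and 82.8 CPM in amiR-SYD-2 and 31.3 and 19.1 CPM in amiR-HsMYO on ABA. On EtOH there were 998 and 1010 CPM in amiR-SYD-1, 984 and 815 CPM in amiR-SYD-2 and 489 and 498 CPM in amiR-HsMYO. Within each medium all 4 libraries of the SYD lines lay above both amiR-HsMYO libraries. PORB was 13.2-fold lower on ABA in amiR-SYD-1 (log2 -3.73 ± 0.18, SE), 12.8-fold in amiR-SYD-2 (log2 -3.68 ± 0.18) and 19.5-fold in amiR-HsMYO (log2 -4.29 ± 0.19), with adjusted p = 2.2e-10, 2.7e-10 and 4.9e-11.

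PORC (AT1G03630, chr1:907523-909650), the POR gene known from mature leaves and strong light, moved little beside its 2 relatives. It had 35.7 and 34.5 CPM in amiR-SYD-1, 36.6 and 37.2 CPM in amiR-SYD-2 and 49.8 and 36.4 CPM in amiR-HsMYO on ABA. The EtOH libraries held 65.7 and 60.7 CPM in amiR-SYD-1, 62.9 and 57.8 CPM in amiR-SYD-2 and 82.8 and 73.4 CPM in amiR-HsMYO. The groups on ABA and on EtOH did not overlap, and on EtOH both amiR-HsMYO libraries were the highest. The fold change on ABA was 1.80-fold lower in amiR-SYD-1 (log2 -0.85 ± 0.11, SE), 1.63-fold in amiR-SYD-2 (log2 -0.71 ± 0.11) and 1.81-fold in amiR-HsMYO (log2 -0.86 ± 0.11), with adjusted p = 1.8e-05, 1e-04 and 7.7e-06.

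The make-up of the POR transcripts therefore differed with the medium and the line. Per length, in CPM per kilobase of exon (RPKM), the 3 POR genes summed to 66.3 and 66.2 in amiR-SYD-1, 56.0 and 71.8 in amiR-SYD-2 and 47.0 and 32.0 in amiR-HsMYO on ABA. On EtOH they summed to 667 and 667 RPKM in amiR-SYD-1, 645 and 536 RPKM in amiR-SYD-2 and 347 and 347 RPKM in amiR-HsMYO. PORB made up 63.1% to 70.3% of that sum in the SYD lines on ABA, against 40.6% and 36.4% in amiR-HsMYO on ABA, where PORC held the larger share (59.3% and 63.5%). On EtOH PORB made up 91.2% to 93.0% of the sum in the SYD lines, against 85.8% and 87.3% in amiR-HsMYO. PORA never passed 3.25% of the sum in any library. No window of 100 bases, the read length, is shared between transcripts of the POR genes, whose longest shared run is 48 bp (PORA and PORB), so whole reads can be told apart.

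CAO (AT1G44446, chr1:16848308-16851271), the oxygenase that turns chlorophyll a into chlorophyll b, went the other way. It had 45.7 and 48.4 CPM in amiR-SYD-1, 43.3 and 43.7 CPM in amiR-SYD-2 and 42.8 and 43.9 CPM in amiR-HsMYO on ABA. On EtOH it had 40.8 and 38.5 CPM in amiR-SYD-1, 34.4 and 28.7 CPM in amiR-SYD-2 and 26.6 and 28.4 CPM in amiR-HsMYO. All ABA libraries were above all EtOH libraries, and the lines lay close together on ABA. CAO rose 1.19-fold in amiR-SYD-1 (log2 0.25 ± 0.08, SE; adjusted p = 0.021), 1.38-fold in amiR-SYD-2 (log2 0.47 ± 0.08; adjusted p = 0.00024) and 1.57-fold in amiR-HsMYO (log2 0.65 ± 0.08; adjusted p = 6.2e-06). The call in amiR-SYD-1 was lost without its ABA replicate 2 (log2 0.21, adjusted p = 0.14), without its EtOH replicate 2 (log2 0.21, adjusted p = 0.14) and with DESeq2 (log2 0.24, adjusted p = 0.07).

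The GLK transcription factors, which act in part redundantly, moved in opposite directions. GLK1 (AT2G20570, chr2:8855302-8857758) had 22.7 and 22.8 CPM in amiR-SYD-1, 24.0 and 25.3 CPM in amiR-SYD-2 and 15.5 and 12.8 CPM in amiR-HsMYO on ABA. Its EtOH values were 13.3 and 13.3 CPM in amiR-SYD-1, 11.4 and 14.0 CPM in amiR-SYD-2 and 9.80 and 11.5 CPM in amiR-HsMYO. Within each line ABA lay above EtOH, most clearly in the SYD lines. GLK1 rose 1.71-fold in amiR-SYD-1 (log2 0.78 ± 0.12, SE; adjusted p = 5.4e-05), 1.92-fold in amiR-SYD-2 (log2 0.94 ± 0.11; adjusted p = 5.5e-06) and 1.33-fold in amiR-HsMYO (log2 0.41 ± 0.12; adjusted p = 0.0077). The call in amiR-HsMYO was lost without its ABA replicate 1 (log2 0.26, adjusted p = 0.1) or its EtOH replicate 1 (log2 0.30, adjusted p = 0.098).

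GLK2 (AT5G44190, chr5:17798262-17800926) had 75.5 and 73.3 CPM in amiR-SYD-1, 57.3 and 58.4 CPM in amiR-SYD-2 and 33.5 and 29.2 CPM in amiR-HsMYO on ABA. The EtOH libraries of the same lines held 129 and 134 CPM in amiR-SYD-1, 106 and 97.0 CPM in amiR-SYD-2 and 50.1 and 50.7 CPM in amiR-HsMYO. The 3 lines kept the same order on both media, with no overlap between lines within a medium. GLK2 was 1.77-fold lower on ABA in amiR-SYD-1 (log2 -0.82 ± 0.07, SE), 1.75-fold in amiR-SYD-2 (log2 -0.81 ± 0.07) and 1.61-fold in amiR-HsMYO (log2 -0.68 ± 0.08), with adjusted p = 1.5e-07, 2.1e-07 and 1.7e-06. GLK1 made up 23.1% and 23.8% of the summed GLK transcripts per length in amiR-SYD-1, 29.5% and 30.2% in amiR-SYD-2 and 31.7% and 30.5% in amiR-HsMYO on ABA. On EtOH that share was 9.35% and 9.03% in amiR-SYD-1, 9.72% and 12.6% in amiR-SYD-2 and 16.4% and 18.4% in amiR-HsMYO, so GLK2 was the major transcript in every library and GLK1 had the larger share on ABA than on EtOH in every line. Transcripts of the 2 GLK genes share no window of 100 bases.

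GUN4 (AT3G59400, chr3:21948501-21949796) binds porphyrins and activates magnesium chelatase, but its row held only 2 to 13 counts per library. It had 0.460 and 0.184 CPM in amiR-SYD-1, 0.353 and 0.457 CPM in amiR-SYD-2 and 0.403 and 0.481 CPM in amiR-HsMYO on ABA, against 0.108 and 0.106 CPM in amiR-SYD-1, 0.296 and 0.432 CPM in amiR-SYD-2 and 0.353 and 0.197 CPM in amiR-HsMYO on EtOH. Its log2 fold change on ABA was 1.51 ± 0.75 in amiR-SYD-1, 0.11 ± 0.50 in amiR-SYD-2 and 0.69 ± 0.51 in amiR-HsMYO (SE; adjusted p = 0.11, 0.88 and 0.27). In the annotation 73.0% of the exonic length of GUN4 is overlapped by exons of the kinase gene GCN2 (AT3G59410, chr3:21948851-21959410) on the other strand, and GCN2 had 586 to 1149 counts per library. Of 774 protein-coding genes with at least 70% of their exons overlapped in this way 751 (97%) were under 1 CPM, against 8187 of 20771 (39.4%) with no such overlap. The other 27% of the exonic length of GUN4 is not overlapped, and no source used here says whether the counting used strand. A low level and reads lost to the overlap cannot be told apart here, so the GUN4 row cannot be read as its transcript level.

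**Figure D2:**
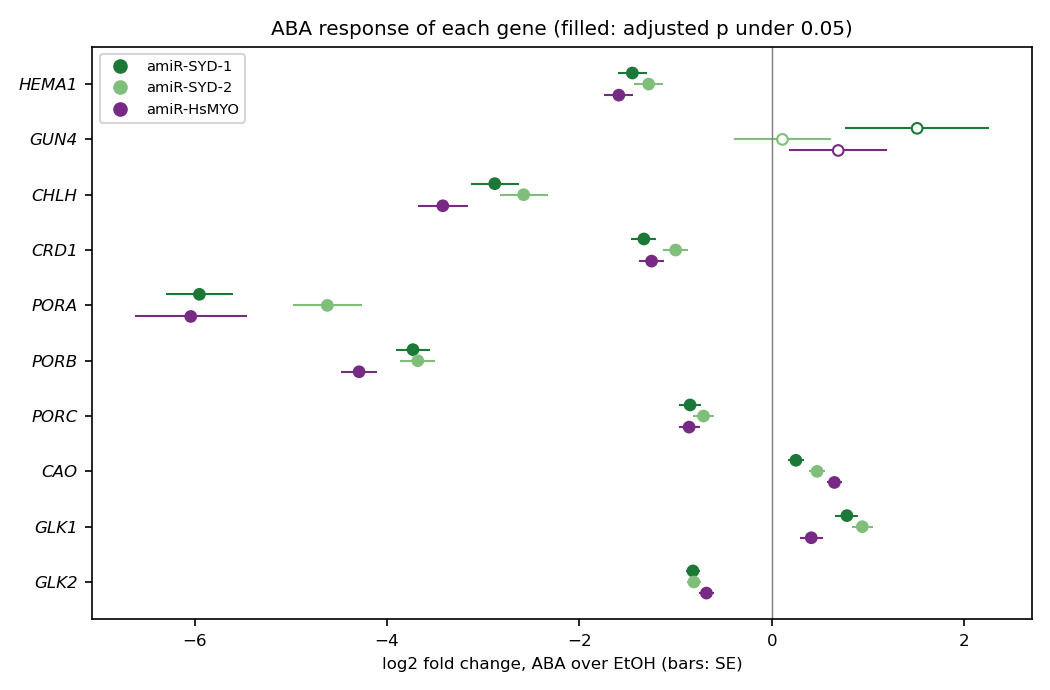
Log2 fold change of ABA over EtOH (x axis) for the 10 genes in amiR-SYD-1, amiR-SYD-2 and amiR-HsMYO. Bars are standard errors worked back from the F-test, and filled points passed adjusted p under 0.05. PORA, PORB and CHLH lie farthest to the left (log2 -6.04, -4.29 and -3.42 in amiR-HsMYO), and GLK1 and CAO lie to the right of 0 in every line.

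The order of the transcript levels per length changed with the medium. GUN4 is placed by its row, which cannot be read as its transcript level. In amiR-HsMYO on ABA, CRD1 was first (53.3 ± 12.7 RPKM, SD, n = 2), followed by PORC (24.1 ± 5.31), CAO (18.7 ± 0.331), GLK2 (18.1 ± 1.74) and PORB (15.4 ± 5.24), and these 4 after CRD1 did not differ from their neighbours in the order by more than their spread. GLK1 (8.19 ± 1.10 RPKM), HEMA1 (7.94 ± 0.646) and CHLH (5.32 ± 0.435) came after, with GLK1 and HEMA1 within each other's spread, and GUN4 (0.341) and PORA (0.0415) were last. In amiR-HsMYO on EtOH the order was PORB (301 ± 3.87 RPKM), CRD1 (127 ± 1.56), CHLH (57.2 ± 1.52), PORC (43.7 ± 3.70), GLK2 (29.1 ± 0.230), HEMA1 (23.9 ± 0.743), CAO (11.9 ± 0.539), GLK1 (6.14 ± 0.677), PORA (3.00 ± 0.118) and GUN4 (0.212 ± 0.0853), each apart from the next by more than both spreads. In the SYD lines on ABA PORB was next after CRD1, at 46.3 ± 0.225 RPKM in amiR-SYD-1 and 42.9 ± 10.7 RPKM in amiR-SYD-2. On EtOH GLK2 lay above CHLH in amiR-SYD-1 (75.9 ± 1.87 RPKM, against 67.9 ± 2.94 RPKM), while in amiR-SYD-2 the pair lay within their spread (58.6 ± 3.67 RPKM for GLK2 and 60.1 ± 14.8 RPKM for CHLH).

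Against amiR-HsMYO on EtOH, the SYD lines held more PORA, PORB and GLK2. In the mean of both SYD lines 6 of the 10 genes were called higher, 1 lower and 3 in neither direction. Of all tested genes 17.7% were called higher and 14.5% lower. The count of higher calls stood above that background, which is a description, as the genes were chosen with earlier results known. PORA was 6.06-fold higher in amiR-SYD-1 (log2 2.60 ± 0.23, SE) and 2.80-fold higher in amiR-SYD-2 (log2 1.48 ± 0.24), and 4.12-fold in their mean (log2 2.04 ± 0.21, adjusted p = 3.3e-06). PORB was 2.04-fold higher in amiR-SYD-1 (log2 1.03 ± 0.16) and 1.82-fold in amiR-SYD-2 (log2 0.87 ± 0.16), and 1.93-fold in their mean (log2 0.95 ± 0.15, adjusted p = 0.00017). GLK2 was 2.61-fold higher in amiR-SYD-1 (log2 1.38 ± 0.07) and 2.01-fold in amiR-SYD-2 (log2 1.01 ± 0.07), and 2.29-fold in their mean (log2 1.20 ± 0.07, adjusted p = 5.5e-09). These 3 genes were the ones called in the same direction in both lines. Of all tested genes 26% were called in amiR-SYD-1 and 25.9% in amiR-SYD-2, each in either direction. The share of all tested genes called alike in both lines was not computed. The median log2 difference of the 10 genes in the mean of the SYD lines was 0.33, against 0.01 for all tested genes.

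The other calls on EtOH were small and several rested on single libraries. CAO was 1.28-fold higher in the mean of the SYD lines (log2 0.36 ± 0.07, SE, adjusted p = 0.0015). CRD1 was 1.29-fold higher (log2 0.37 ± 0.11, adjusted p = 0.018), a call lost without amiR-HsMYO replicate 1 on EtOH (0.36, adjusted p = 0.12), without replicate 2 of the same group (0.39, adjusted p = 0.081), without amiR-SYD-2 replicate 1 on EtOH (0.26, adjusted p = 0.072) and with DESeq2 (0.38, adjusted p = 0.066). PORC was 1.26-fold lower (log2 -0.34 ± 0.09, adjusted p = 0.011), but not called without amiR-HsMYO replicate 1 on EtOH (-0.25, adjusted p = 0.16). GLK1 had a log2 difference of 0.29 ± 0.11 at an adjusted p of 0.047. That call was lost without amiR-HsMYO replicate 1 on EtOH (0.18, adjusted p = 0.38), without amiR-SYD-2 replicate 2 on EtOH (0.21, adjusted p = 0.16), and without any of the 4 SYD libraries on ABA or either amiR-SYD-1 library on EtOH (0.27 to 0.29, adjusted p = 0.06 to 0.089). It was lost as well with DESeq2 (0.30, adjusted p = 0.1), and in a fit to the compared libraries alone (0.27, adjusted p = 0.076). HEMA1 (log2 -0.23 ± 0.12, adjusted p = 0.15) and CHLH (log2 0.16 ± 0.20, adjusted p = 0.58) did not pass, and HEMA1 passed without amiR-SYD-2 replicate 1 on EtOH (-0.34, adjusted p = 0.04), without the filter on low counts (-0.26, adjusted p = 0.0016) and in a fit to the compared libraries alone (-0.25, adjusted p = 0.044). By line, 5 genes were called higher and 0 lower in amiR-SYD-1, and 3 higher and 2 lower in amiR-SYD-2. CAO and CRD1 were called in amiR-SYD-1 (0.53 and 0.51, adjusted p = 0.00027 and 0.0074) and not in amiR-SYD-2 (0.19 and 0.23, adjusted p = 0.11 and 0.2). HEMA1 was called lower in amiR-SYD-2 (-0.44, adjusted p = 0.029) and not in amiR-SYD-1 (-0.02, adjusted p = 0.92), and PORC likewise (-0.37, adjusted p = 0.019, and -0.30, adjusted p = 0.05). Of these 4 genes none differed between the SYD lines at an adjusted p under 0.05 (adjusted p = 0.083 to 0.91). Several of these calls turned on 1 EtOH library. Without amiR-SYD-2 replicate 2, CAO (0.32, adjusted p = 0.019) and CRD1 (0.40, adjusted p = 0.048) were called in amiR-SYD-2, and HEMA1 (-0.27, adjusted p = 0.26) and PORC (-0.31, adjusted p = 0.12) were not. Without amiR-HsMYO replicate 1 the amiR-SYD-2 calls of HEMA1 (-0.47, adjusted p = 0.085) and PORC (-0.29, adjusted p = 0.17) and the amiR-SYD-1 call of CRD1 (0.50, adjusted p = 0.053) were lost, and that of HEMA1 also without amiR-HsMYO replicate 2 (-0.40, adjusted p = 0.12). PORC was called lower in amiR-SYD-1 under 7 of the alternatives (-0.33 to -0.30, adjusted p = 3e-04 to 0.049).

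Against amiR-HsMYO on ABA, the SYD lines held more PORB, GLK1 and GLK2. Again 6 genes were called higher in the mean of both lines, with 0 lower and 4 in neither direction, where 16.8% of all tested genes were called higher and 15.9% lower. By an unadjusted p under 0.05, PORC was the 1 further gene, on the lower side. PORB was 3.01-fold higher in amiR-SYD-1 (log2 1.59 ± 0.18, SE) and 2.78-fold in amiR-SYD-2 (log2 1.48 ± 0.18), and 2.89-fold in their mean (log2 1.53 ± 0.16, adjusted p = 5.1e-06). GLK2 was 2.37-fold higher in amiR-SYD-1 (log2 1.25 ± 0.07) and 1.84-fold in amiR-SYD-2 (log2 0.88 ± 0.08), and 2.09-fold in their mean (log2 1.06 ± 0.07, adjusted p = 2.3e-08). GLK1 was 1.60-fold higher in amiR-SYD-1 (log2 0.68 ± 0.11) and 1.73-fold in amiR-SYD-2 (log2 0.79 ± 0.11), and 1.67-fold in their mean (log2 0.74 ± 0.10, adjusted p = 3.6e-05). The median log2 difference of the 10 genes was 0.59, against -0.02 for all tested genes.

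The remaining calls on ABA were less firm. CHLH was 1.81-fold higher in the mean of the SYD lines (log2 0.86 ± 0.22, SE, adjusted p = 0.0086), but not called without amiR-HsMYO replicate 2 on ABA (0.78, adjusted p = 0.066). CRD1 was 1.37-fold higher (log2 0.45 ± 0.11, adjusted p = 0.0069), and lost its call without that same library (0.23, adjusted p = 0.12). PORA was 6.94-fold higher in the fit (log2 2.80 ± 0.89, adjusted p = 0.026), and the call was lost without amiR-HsMYO replicate 1 (3.63, adjusted p = 0.07), amiR-HsMYO replicate 2 (2.31, adjusted p = 0.14), amiR-SYD-1 replicate 2 (2.48, adjusted p = 0.1) or amiR-SYD-2 replicate 2 (2.27, adjusted p = 0.11), all on ABA. In counts, PORA had 20 in amiR-SYD-1 and 25 in amiR-SYD-2, against 4 in amiR-HsMYO, which gives depth-scaled ratios of 6.88 (95% counting interval 2.30 to 27.7) and 7.97 (2.75 to 31.5). PORC (log2 -0.26 ± 0.10, adjusted p = 0.05), CAO (log2 0.06 ± 0.07, adjusted p = 0.51) and HEMA1 (log2 0.00 ± 0.14, adjusted p = 0.99) did not pass. PORC did pass without amiR-HsMYO replicate 2 on ABA (-0.46, adjusted p = 0.00064), with the replicate block (-0.25, adjusted p = 0.013), without the filter on low counts (-0.25, adjusted p = 0.0026) and at a minimum count of 50 (-0.26, adjusted p = 0.048). In each line singly, 5 genes were called in the same direction in both (PORB, GLK1, GLK2, CHLH and CRD1). Of all tested genes 26.2% were called in amiR-SYD-1 and 25.5% in amiR-SYD-2, each in either direction, and the share called alike in both was not computed. In that comparison of single lines, the calls of PORB, GLK1 and GLK2 held with each library left out. The CHLH calls were lost without amiR-HsMYO replicate 2 (0.72 in amiR-SYD-1 and 0.84 in amiR-SYD-2), in amiR-SYD-1 also without amiR-HsMYO replicate 1 (0.89) or its own replicate 2 (0.60), and in amiR-SYD-2 without its own replicate 2 (0.25), with adjusted p from 0.058 to 0.41. The CRD1 calls were lost without amiR-HsMYO replicate 2 (0.21 in amiR-SYD-1 and 0.26 in amiR-SYD-2), in amiR-SYD-1 also without its replicate 1 (0.43) or 2 (0.44), and in amiR-SYD-2 without its replicate 2 (0.41), with adjusted p from 0.089 to 0.22. DESeq2 did not call CHLH in amiR-SYD-1 (0.82, adjusted p = 0.1) or amiR-SYD-2 (0.95, adjusted p = 0.053), nor CRD1 in amiR-SYD-1 (0.45, adjusted p = 0.062).

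**Figure D3:**
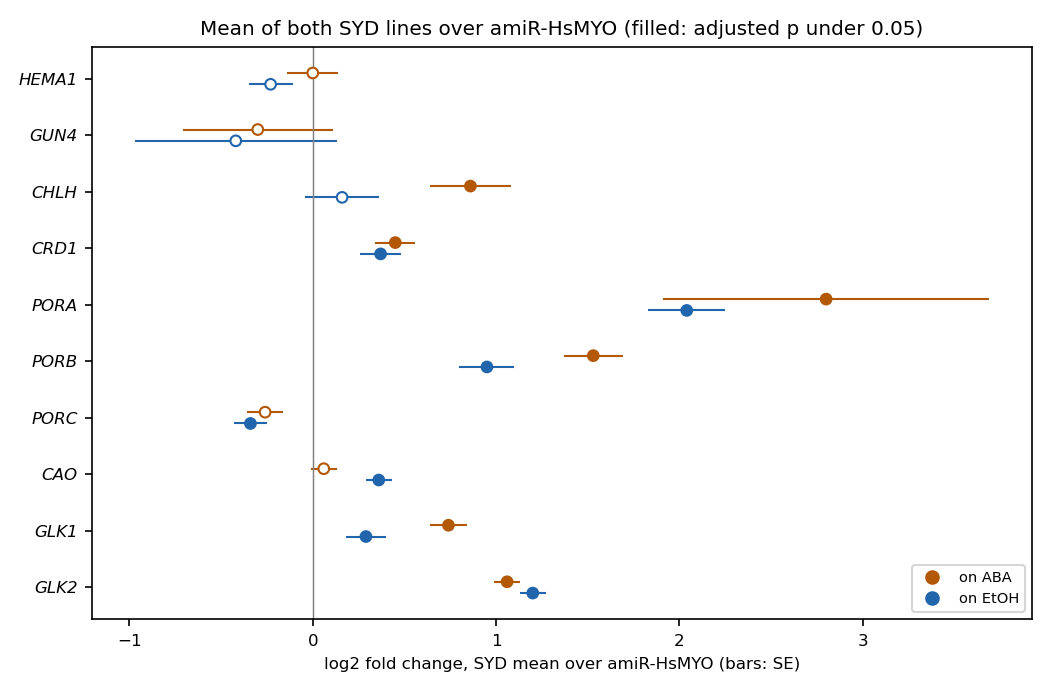
Log2 difference of the mean of both SYD lines over amiR-HsMYO (x axis) for the 10 genes on ABA and on EtOH. Bars are standard errors worked back from the F-test, and filled points passed adjusted p under 0.05. GLK2 and PORB are to the right of 0 on both media with narrow errors (GLK2 at 1.06 on ABA and 1.20 on EtOH), while the PORA value on ABA, 2.80, has a standard error of 0.89.

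Some markers of other tissues differed between the lines too. Of all tested genes 16.8% were called higher and 15.9% lower on ABA, and 17.7% higher and 14.5% lower on EtOH. In lists this short, 1 of 3 or 1 of 4 called is not set apart from those shares. Of the 7 seed reserve markers 4 were called higher and 2 lower in the mean of the SYD lines over amiR-HsMYO on ABA (median log2 1.77), among them SESA4, 7.21-fold higher, CRC, 5.99-fold higher, and OLEO1, 2.04-fold lower. On EtOH 3 of the 7 were called higher and 0 lower (median 1.05). Of the 3 endosperm markers 1 (MAN7) was called higher on each medium. The 4 green tissue markers had medians of -0.01 on ABA and 0.18 on EtOH, and 1 of the 4, the small Rubisco subunit gene RBCS1A, was called higher on each medium (log2 0.22 ± 0.08 on ABA and 0.36 ± 0.08 on EtOH, SE). RBCS1A also made up nearly the whole of their summed level, which was 2120 to 2560 CPM in the SYD lines, against 1860 to 2060 CPM in amiR-HsMYO, on ABA, and 2520 to 2990 CPM in the SYD lines, against 2170 to 2230 CPM in amiR-HsMYO, on EtOH. The 4 root hair and root epidermis markers summed to between 33.3 and 37.2 CPM in the SYD lines, against 22.3 to 23.4 CPM in amiR-HsMYO, on ABA, where 2 of the 4 (EXPA7 and EXPA18) were at 0 in every library. On EtOH they summed to between 31.5 and 51.6 CPM in the SYD lines, against 20.9 to 22.8 CPM in amiR-HsMYO, and all 4 were called higher. The part of these shifts in the differences of PORA, PORB, GLK1 and GLK2 was not tested.

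Whether the ABA response itself differed between the lines was tested as an interaction. For none of the 10 genes did the mean response of the SYD lines differ from that of amiR-HsMYO at an adjusted p under 0.05 by edgeR's quasi-likelihood test, where 5.14% of all tested genes did; DESeq2 also called 0, and 4 of the 10 had an unadjusted p under 0.05. The differences in log2 response were 0.44 ± 0.14 for GLK1 (SE, adjusted p = 0.094), -0.30 ± 0.10 for CAO (adjusted p = 0.11), 0.59 ± 0.21 for PORB (adjusted p = 0.14), 0.70 ± 0.29 for CHLH (adjusted p = 0.21) and 0.75 ± 1.00 for PORA (adjusted p = 0.74). For GLK2 the difference was -0.13 ± 0.09 (adjusted p = 0.47). Without the filter on low counts, PORB (0.62, adjusted p = 2.5e-07), CHLH (0.74, adjusted p = 4.2e-10) and GLK1 (0.48, adjusted p = 0.0084) were called by the same test. That alternative called 1817 of 26066 genes. Single libraries decided these outcomes as well: without amiR-HsMYO replicate 1 on ABA, PORB (0.99) and GLK1 (0.60) were called. Without amiR-SYD-2 replicate 1 on ABA, CHLH was called (0.93, adjusted p = 0.0092), and without amiR-SYD-2 replicate 2 on EtOH, CAO (-0.36, adjusted p = 0.03) and GLK1 (0.53, adjusted p = 0.04) were. With each line taken singly 0 of the 10 were called in amiR-SYD-1 and 0 in amiR-SYD-2, against 2.84% and 3.7% of all tested genes, and 3 of the 10 had an unadjusted p under 0.05 in each; DESeq2 called 0 in both. Between the SYD lines 2 of the 10 were called on EtOH (PORA and GLK2, both higher in amiR-SYD-1), where 0.688% of all tested genes were, and 1 on ABA (GLK2, higher in amiR-SYD-1), where 0.846% were; the PORA call was lost without amiR-SYD-1 replicate 1 (0.81, adjusted p = 0.38) or amiR-SYD-2 replicate 2 (0.84, adjusted p = 0.21) on EtOH. The GLK2 call on EtOH was lost without either amiR-SYD-1 library or amiR-SYD-2 replicate 2 on EtOH (0.31 to 0.40, adjusted p = 0.16 to 0.23), and that on ABA without any of the 4 SYD libraries on ABA (0.34 to 0.38, adjusted p = 0.18 to 0.29).

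How the other steps of the pathway moved was read from 7 lists of further genes. On ABA in amiR-HsMYO the antenna genes were the most uniform. All 11 antenna genes, which encode the proteins that hold chlorophyll, fell (median log2 -1.88), and so did all 11 in amiR-SYD-1 (median -2.75) and in amiR-SYD-2 (median -1.61). The named members were LHCB2.1 (log2 -3.05 ± 0.31, SE), LHCB2.2 (-2.64 ± 0.42), LHCB5 (-2.58 ± 0.24) and LHCB6 (-2.31 ± 0.16), and LHCB2.1 and LHCB2.2 are close copies whose reads may be split between them. In the magnesium branch 5 of 8 genes fell and 0 rose (median -0.28): CHLP, which reduces the phytol tail, fell by 0.94 ± 0.16 on the log2 scale and CHLI1, a second chelatase subunit, by 0.51 ± 0.11. CHLD, the remaining chelatase subunit, did not pass (-0.11 ± 0.09, adjusted p = 0.31), nor did CHLG, the chlorophyll synthase (-0.14 ± 0.08, adjusted p = 0.17). Of 13 tested genes from 5-aminolevulinate to protoporphyrin IX 2 rose and 4 fell (median -0.17), and HEMA2, the relative of HEMA1 known from non-green tissue, rose (0.63 ± 0.10). In the chlorophyll b cycle 2 of 3 rose and 0 fell (median 0.62), with HCAR, which turns chlorophyll b back towards chlorophyll a, at 0.89 ± 0.08. Of 5 tested genes of the heme and bilin branch 0 rose and 2 fell (median -0.16). The median of all tested genes was 0.02, and 26.9% of them were called higher and 27.1% lower, so that the count for the steps up to protoporphyrin IX lay near those shares.

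Genes of chlorophyll breakdown moved both ways on ABA in amiR-HsMYO, where 3 of 7 rose and 2 fell (median 0.35). SGR1, the magnesium dechelatase that starts breakdown, had a log2 fold change of 2.23 ± 0.10 (SE), and SGR2, its relative reported to act against breakdown in leaves, of 3.32 ± 0.14 (9.96-fold, adjusted p = 1.9e-11). CLH1 fell by 1.01 ± 0.18 and PAO, the oxygenase that opens the ring, by 0.43 ± 0.09 on the log2 scale; PAO was named after its value was seen. Of 14 regulators of greening 2 rose and 8 fell (median -0.33). The GATA factors GNC (-0.61 ± 0.08) and CGA1 (-0.57 ± 0.09) fell with GLK2, while the phytochrome-interacting factor PIF1 (-0.04 ± 0.07, adjusted p = 0.64) and the light-signalling factor HY5 (-0.09 ± 0.09, adjusted p = 0.42) did not pass. Other regulators on the list did: PIF5 (-1.51 ± 0.18), HYH (-0.49 ± 0.08) and PIF3 (-0.23 ± 0.09) fell, and PIF4 (1.04 ± 0.14) rose. PIF4, PIF5 and HYH were named after their values were seen.

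**Figure D4:**
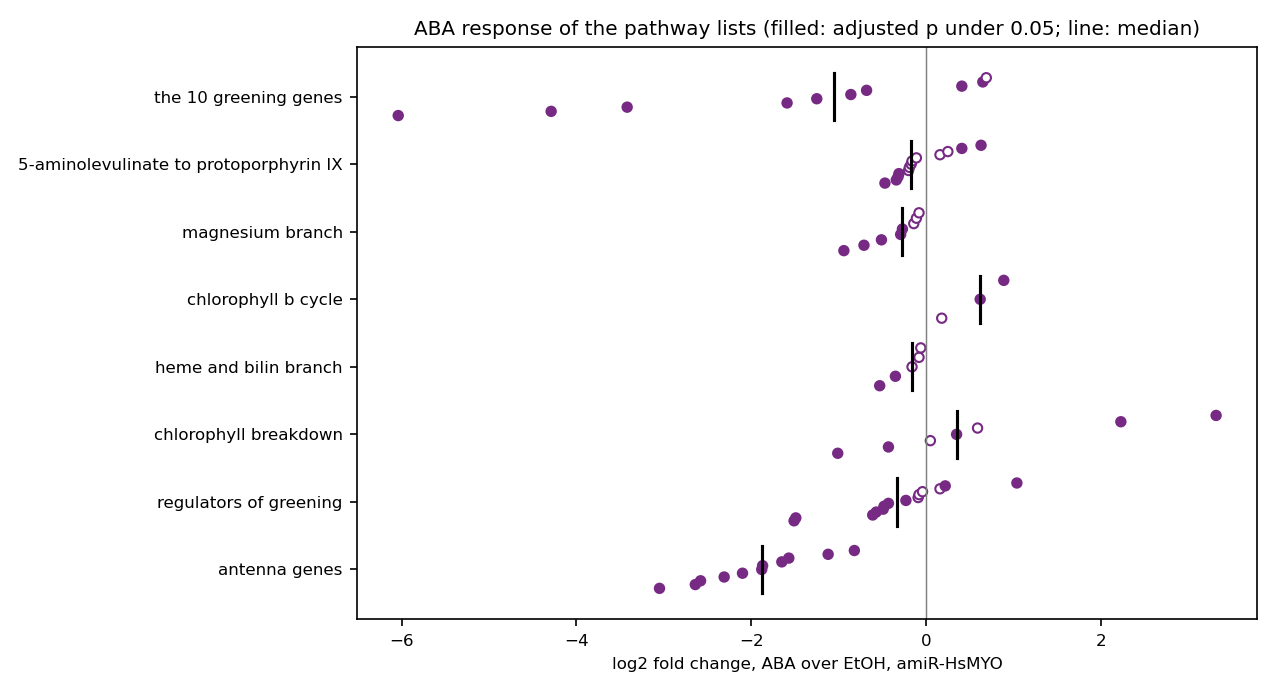
Log2 fold change of ABA over EtOH in amiR-HsMYO (x axis) for each tested gene of the 10 greening genes and of 7 lists around them; filled points passed adjusted p under 0.05 and vertical bars are list medians. The 11 antenna genes all lie left of 0 (median -1.88), as do all 8 genes of the magnesium branch (median -0.28), of which 5 passed.

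In the SYD lines some genes of synthesis were higher and some of breakdown lower. On EtOH, in the mean of the SYD lines over amiR-HsMYO, 7 of 13 genes from 5-aminolevulinate to protoporphyrin IX and 3 of 8 of the magnesium branch rose with 0 lower (medians 0.16 and 0.12), while 3 of 7 breakdown genes fell with 0 higher (median -0.31), where 17.7% of all tested genes were called higher and 14.5% lower. CHLP rose (0.52 ± 0.14, SE), as did LHCB4.2 (0.54 ± 0.10), and in all 2 of 11 antenna genes rose and 0 fell (median 0.29). That mean covered unlike lines: 7 of 11 antenna genes were called higher in amiR-SYD-1 (median 0.57) and 0 of 11 in amiR-SYD-2 (median 0.07), and 2 of 11 were called between the lines. Of all tested genes 26% were called in amiR-SYD-1 and 25.9% in amiR-SYD-2, each in either direction, and 0.688% between the lines. CLH1, a chlorophyllase, fell (-0.75 ± 0.15), and NYC1, a chlorophyll b reductase, fell too (-0.76 ± 0.09). The heme and bilin branch had 1 higher and 1 lower of 5 (median -0.06) and the chlorophyll b cycle 1 higher and 1 lower of 3 (median 0.01). Of 14 regulators 5 rose and 2 fell (median 0.12): CGA1 was 2.17-fold lower (log2 -1.12 ± 0.07, adjusted p = 4e-08), the opposite direction to GLK2, and PIF3 was higher (0.67 ± 0.08).

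On ABA the same contrast gave 3 higher and 0 lower of 13 genes up to protoporphyrin IX (median 0.09), 3 higher and 0 lower of 8 in the magnesium branch (median 0.11), and 0 higher and 4 lower of 7 breakdown genes (median -0.52). Of all tested genes 16.8% were called higher and 15.9% lower, so that 3 of 13 lay near the background. CHLP was higher (0.62 ± 0.14, SE) and CLH2 (-1.10 ± 0.40, adjusted p = 0.044), SGR1 (-0.55 ± 0.08), NYC1 (-0.61 ± 0.08) and CGA1 (-0.75 ± 0.08) were lower. The 4 lower breakdown genes include SGR2 (-0.53 ± 0.09), which is reported to act against breakdown in leaves. SGR2 and CLH1 (-0.52 ± 0.18, also lower) were named here after their values were seen. The CLH2 value rested on few counts: 4 and 6 in amiR-SYD-1, 6 and 8 in amiR-SYD-2 and 17 and 17 in amiR-HsMYO. LHCA4 (0.56 ± 0.10) was the 1 antenna gene of 11 called higher (median -0.04), with 1 higher and 2 lower in amiR-SYD-1 and 2 higher and 0 lower in amiR-SYD-2. Of all tested genes 26.2% were called in amiR-SYD-1 and 25.5% in amiR-SYD-2, each in either direction, so these antenna counts lay near the background. The chlorophyll b cycle had 0 higher and 1 lower of 3 (median -0.07), the heme and bilin branch 1 higher and 2 lower of 5 (median -0.09), and the regulators 3 higher and 3 lower of 14 (median 0.12). In the test of the response difference for the mean of the SYD lines, passed by 5.14% of all tested genes, 2 list genes passed: PIF3 (-1.09 ± 0.11, adjusted p = 4.8e-05) and HCAR (-0.46 ± 0.10, adjusted p = 0.016). That mean covered unlike lines for the antenna genes. In amiR-SYD-1 2 of 11 were called lower and 0 higher (median -0.50), where 2.84% of all tested genes were called. In amiR-SYD-2 0 of 11 were called (median 0.29), where 3.7% of all tested genes were. PIF3 averaged 37.9 ± 3.31 CPM in amiR-SYD-1, 42.4 ± 0.869 CPM in amiR-SYD-2 and 54.0 ± 4.08 CPM in amiR-HsMYO on ABA, against 106 ± 5.85 CPM in amiR-SYD-1, 95.2 ± 3.91 CPM in amiR-SYD-2 and 63.4 ± 7.62 CPM in amiR-HsMYO on EtOH (SD, n = 2 each).

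Over the 12 libraries PORB ran with PORA (Pearson r = 0.99 on log2 CPM), CHLH (0.98) and CRD1 (0.98), while GLK1 had r = -0.04 with GLK2, -0.85 with PORC and 0.74 with CAO. These are descriptions over 12 libraries that share the split by medium. The tested genes most like PORB were CINV1 (0.998), MDHAR (0.998) and HEC1 (0.997), and those most like PORA were AT1G47380 (0.994), AT2G35260 (0.993) and ABCI21 (0.992). Most like GLK2 were EXPA9 (0.988), AT4G31080 (0.988) and XLG1 (0.987), and most like GLK1 were AT1G33750 (0.968), KAT5 (0.962) and AT4G22214 (0.961).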

How the data were processed

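Poly(A) RNA of 12 seed libraries was sequenced as 100 bp pairs from a stranded kit, per the labels' protocols. Per the submitters' processing notes the tools were Trimmomatic 0.39 and STAR 2.7.10a, and the genome build was TAIR10; no source used here names the counting program, its strand setting or its gene models. The authors deposited 1 table of raw counts per gene, and these counts were analysed as deposited. Gene positions, exonic lengths and upstream sequences were taken from the RefSeq annotation of TAIR10.1. CPM were computed on TMM-scaled library totals of the tested genes, and RPKM are CPM per kilobase of exon.

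Genes passing filterByExpr at a minimum count of 10 were tested with edgeR 4.0.16 (R 4.3.3): TMM scaling, 6 group means over all 12 libraries, quasi-likelihood F-tests with Benjamini-Hochberg adjustment over the 19612 tested genes of each comparison, called at adjusted p under 0.05. The SE given with a log2 value was worked back from the F-test, as the size of that value over the square root of F. At few counts, as for PORA on ABA, it is a rough guide only. The steps were tested on simulated data. The 10 genes and all lists were chosen with earlier results of these data known. Of the lists, the genes named are the called ones with the largest changes (at most 6 per comparison) and some picked by role. A few more were named after their values were seen, as stated where they appear. The likeness genes are the 3 with the highest r. Alternatives were RLE scaling, DESeq2 1.42.0, other filters, a replicate block, only the groups compared, and each library left out.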

Additional observations from a re-analysis of the deposited data

Results flagged for a closer look

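Differences between the 2 SYD lines under the same medium stood out in 3 cases, by a test of line against line. On EtOH, PORA was higher in amiR-SYD-1 (36.0 and 24.5 CPM) than in amiR-SYD-2 (16.9 and 11.3 CPM), a log2 difference of 1.12 ± 0.20 (SE; edgeR's quasi-likelihood test, adjusted p = 0.02), although SYD itself differed by 0.02 ± 0.09 (adjusted p = 0.98). GLK2 was higher in amiR-SYD-1 than in amiR-SYD-2 by 0.37 ± 0.07 on EtOH (adjusted p = 0.025) and by 0.36 ± 0.07 on ABA (adjusted p = 0.027). Of all tested genes 0.688% were called in this comparison on EtOH and 0.846% on ABA. Each of the 3 calls was lost when certain single libraries of the SYD lines were left out, which gave log2 differences of 0.81 and 0.84 for PORA on EtOH, 0.31 to 0.40 for GLK2 on EtOH and 0.34 to 0.38 for GLK2 on ABA.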

How the results depend on the processing

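Over 140 values (10 genes in 14 comparisons) and 18 alternatives, 2380 of 2497 recomputed values kept their direction and their side of the threshold, 58 lost the call, 59 gained it and 0 changed sign in a call. The calls of PORA, PORB and GLK2 on EtOH and of PORB, GLK1 and GLK2 on ABA, in the mean of the SYD lines over amiR-HsMYO, held under every alternative. Without the filter on low counts the number of the 10 genes called was 3 for each of the response differences (amiR-SYD-1, amiR-SYD-2 and their mean; 0 with the filter) and 5 for amiR-SYD-1 over amiR-SYD-2 on EtOH (2 with it). Over all genes this alternative called 1216, 1518 and 1817 response differences, against 557, 726 and 1008, and 616 and 471 differences between the SYD lines on EtOH and ABA, against 135 and 166. The labels state no pairing of same-numbered libraries. The 15 correlations of their deviations lay between -0.03 and 0.15 (median 0.07), and 2 were over 0.1. With the replicate block 1 gene (CAO, log2 -0.41, adjusted p = 0.046) was called for the amiR-SYD-1 response difference, and over all genes 912, 1254 and 1628 response differences and 308 line differences on EtOH. With only the groups compared 1 gene was called between the SYD lines on EtOH, and 410 of all genes on ABA. Leaving out 1 library at a time gave 0 to 1, 0 to 3 and 0 to 2 genes called for the response differences of amiR-SYD-1, amiR-SYD-2 and their mean, 3 to 5 for amiR-SYD-2 and 4 to 7 for the SYD mean over amiR-HsMYO on EtOH. On ABA it gave 3 to 6 for either SYD line over amiR-HsMYO and 4 to 6 for their mean, and between the SYD lines 0 to 3 on EtOH and 0 to 1 on ABA. The causes were not tested. The median log2 value of all tested genes was at most 0.02 in size in each edgeR fit and comparison, and RLE scaling left the number of the 10 genes called the same in each comparison. Depth limits PORA on ABA.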
